A study of Mus musculus with 32 samples.

Results

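Pannexins and purinergic signalling were followed through 10 genes in the retinal pigment epithelium (RPE) of mice labelled rd1, a strain whose photoreceptors degenerate. The genes were 2 pannexins (*Panx1* and *Panx2*), 3 receptors for extracellular nucleotides (*P2rx4*, *P2rx7* and *P2ry2*), 3 ectoenzymes (*Entpd1*, *Entpd2* and *Nt5e*) and 2 adenosine receptors (*Adora1* and *Adora2b*). All 10 were found by symbol among the 34453 rows of the table, and all 10 passed the filter on low counts in every comparison. They were chosen by the levels of *Panx1*, after these had been seen to be higher with Nrf2, so the Nrf2 values of *Panx1* are given as a description without a test, and the tests are those of the other 9 genes with Nrf2 and of all 10 with age.

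RPE RNA was sequenced from both eyes of 16 mice labelled rd1 (loss of *Pde6b* function), 7 collected at postnatal day 20 (P20) and 9 at day 40 (P40). One eye of each mouse (the Nrf2 eye) had received AAV-Best1-Nrf2 mixed with AAV-Best1-GFP under the retina. Its fellow (the control eye) had received only AAV-Best1-GFP, so every eye carried the GFP virus. By the study's methods the mixture was a higher total dose of virus, and the Nrf2 virus had a different capsid from the GFP virus. Dose and capsid therefore cannot be told apart from Nrf2 in any comparison of Nrf2 with control eyes. Nrf2 is a transcription factor of the antioxidant response, supplied as the human cDNA, and the Best1 promoter limits expression to the RPE. The study's methods count fewer rd1 pairs than the labels at both ages. They also name pairs of the sighted strain CD1 at P40, more of them than of rd1 at that age. Whether any P40 pair labelled rd1 was CD1 was not tested, and this doubt bears on every result at P40 and every result with age.

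Pannexins form large-pore channels in the plasma membrane through which cells release ATP. Extracellular ATP opens the P2X ion channels and, with other nucleotides, activates the G protein-coupled P2Y receptors. The ectonucleotidases remove its phosphates step by step, and the last step yields adenosine, which acts on its own receptors. In the RPE this system is known for its part in ion and fluid transport and in exchange with the photoreceptors.

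The libraries held 16548332 to 50542797 counts (median 34471850), and 3 counts, the limit that a count of 0 allows, corresponded to 0.0565 to 0.182 CPM (counts scaled to the effective library size). The human transgene stood at 1082 to 9500 CPM in the P20 Nrf2 eyes and at 3203 to 10431 CPM in the P40 Nrf2 eyes, and at most at 154 CPM in the control eyes other than that of P20 mouse 3, which held 1098 CPM. The control library of P20 mouse 3 and the Nrf2 library of P20 mouse 4 stood apart from their groups. The mean squared difference between them was 8.41 times the sampling variance, against at least 54.3 times for every other pair of the 32 libraries. Results at P20 that change without these mice are therefore given both ways. Whether these 2 libraries share RNA or had their labels exchanged was not tested. All 12 RPE markers were detected and summed to 11391 to 70956 CPM. RNA of a whole tissue cannot separate fewer cells of a type from less RNA per cell.

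*Panx1* (ENSMUSG00000031934), the most widely expressed pannexin, lies on the minus strand of chromosome 9 at 15002128 to 15045478 (GRCm38). The 250 bases upstream of its RefSeq start are shown because *Panx1* had the largest difference of the 10 genes under a transcription factor transgene. They are printed 5′ to 3′ on the gene's strand (GRCm38.p6, chr9:15045479-15045728).
*Panx1*: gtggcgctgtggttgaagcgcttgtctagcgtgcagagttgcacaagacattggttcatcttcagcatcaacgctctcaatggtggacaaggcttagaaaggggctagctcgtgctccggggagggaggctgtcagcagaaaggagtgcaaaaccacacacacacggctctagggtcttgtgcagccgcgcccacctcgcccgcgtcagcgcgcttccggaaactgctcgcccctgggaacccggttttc

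The core of the antioxidant response element, the motif that Nrf2 binds, was searched as TGACNNNGC on both strands of RefSeq promoter windows of 300 bases (250 before and 50 after the start). RefSeq windows matched 9 of the 10 genes (13 windows), and 3 of these windows held the letters, against 12.4% of the 32851 windows of all genes. The letters were not in the window of *Panx1*. The 3 matches, with the motif in capitals and 10 bases on either side, are shown to compare their letters, and the matches in *P2rx7* and *Entpd2* lie on the opposite strand to the gene (*P2rx4*, chr5:122707383-122707411; *P2rx7*, chr5:122643829-122643857; *Entpd2*, chr2:25395763-25395791; all GRCm38.p6 and plus strand).
*P2rx4*: ctccgggagcTGACCTTGCtccctgctcc
*P2rx7*: ggctagcgggGCGGGGTCAtctgccagcc
*Entpd2*: tggtggtgcgGCTGAGTCAcctacacgct
A match is a description of the letters, and none of these 3 genes passed the test with Nrf2 at either age.

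*Panx1* was higher in the Nrf2 eye than in the control eye of all 7 mice at P20 and all 9 at P40. In P20 control eyes of mice 1 to 7 it stood at 10.4, 14.5, 47.2, 13.5, 16.7, 15.96 and 8.52 CPM. In the Nrf2 eyes of the same mice it stood at 336, 138, 294, 36.5, 173, 173 and 271 CPM. The groups overlapped only through the control eye of mouse 3 and the Nrf2 eye of mouse 4, the 2 eyes whose libraries stood apart, so the overlap rests on them.

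At P40, control eyes held 2.46 to 12.7 CPM of *Panx1* (median 9.63, n = 9) and Nrf2 eyes held 86.1 to 339 CPM (median 237, n = 9). These groups did not overlap, and the lowest eye of both was that of mouse 3. The fitted log2 fold change was 3.42 (SE 0.44, 10.7-fold) at P20 and 4.43 (SE 0.25, 21.5-fold) at P40. Without P20 mice 3 and 4 the P20 value was 3.95. Of all genes tested, 5.59% at P20 and 3.55% at P40 were higher in every pair. The share of all genes whose Nrf2 and control eyes did not overlap was not computed.

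**Figure D1:**
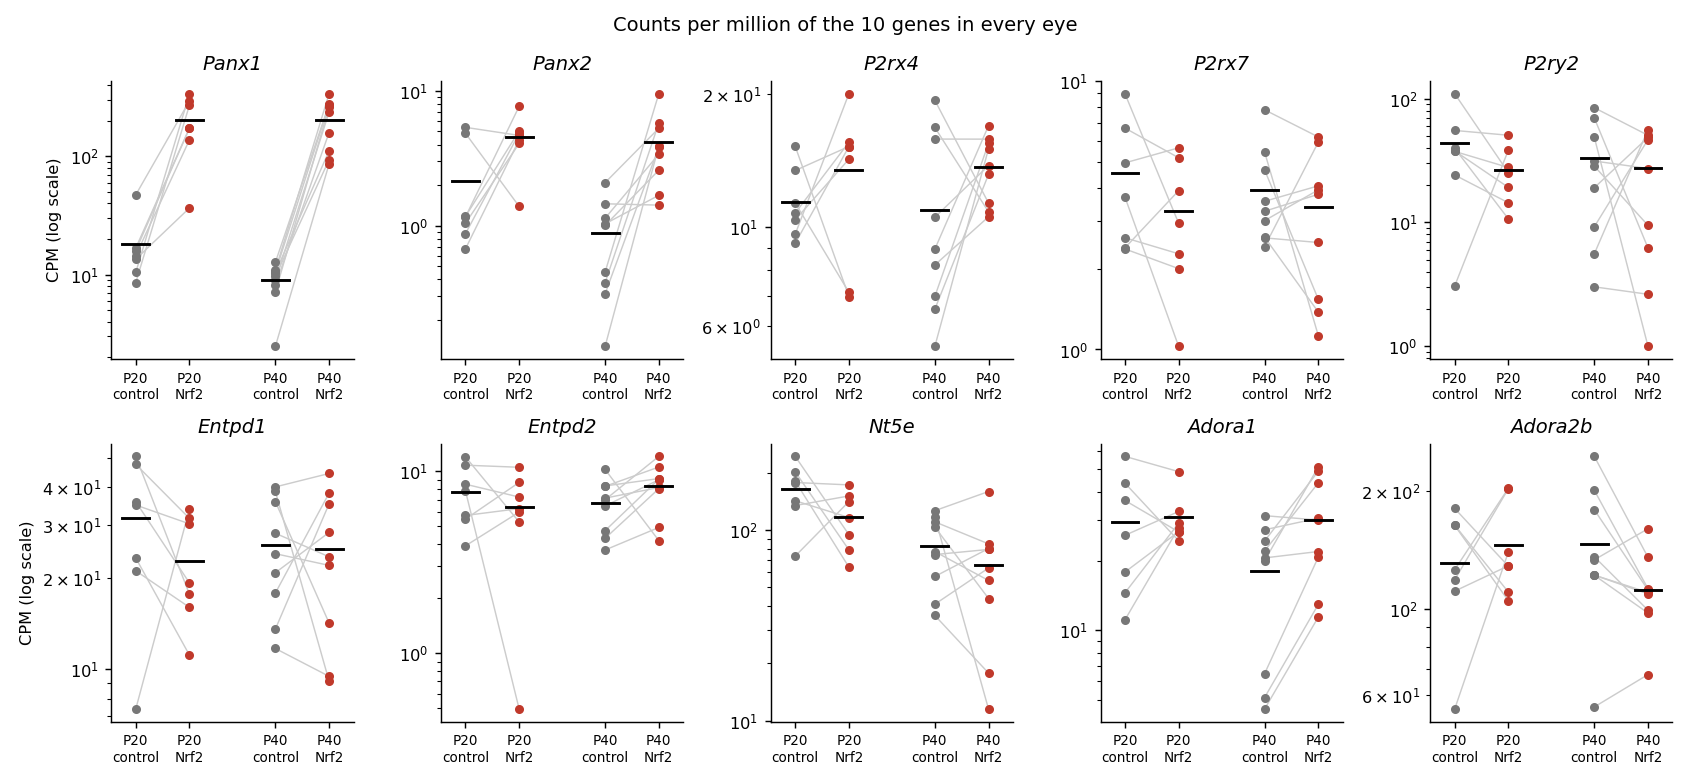
CPM (log scale) of the 10 genes in each eye, with control eyes in grey, Nrf2 eyes in red, a thin line joining the eyes of a mouse and a black bar at the group mean. *Panx1* shows 9 of 9 lines going up at P40, from 2.46 to 12.7 CPM up to 86.1 to 339 CPM, while the lines of *P2ry2* and *Entpd1* cross in both directions.

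The level of *Panx1* among Nrf2 eyes was set beside that of the transgene as a description. Across the 7 P20 Nrf2 eyes, Pearson's r of the log2 CPM was 0.983 and Spearman's rho was 0.857. Without mice 1 and 4, the eyes farthest from the median transgene level, r was 0.873 (n = 5). Across the 9 P40 Nrf2 eyes r was 0.476 and rho was 0.433, and r without mice 1 and 8 was 0.327 (n = 7). The Nrf2 eye of P40 mouse 3 combined the lowest *Panx1* level of its group with 9138 CPM of transgene. With each P40 eye left out in turn, r ran from 0.338 (without mouse 4) to 0.835 (without mouse 3). None of the 18 relations of the other 9 genes at both ages passed the threshold of 0.05 (exact permutation tests, 2-sided, adjusted after Benjamini-Hochberg over 20 relations with those of *Panx1* included), and the lowest adjusted P of a Pearson value, shared by 4 of them, was 0.204.

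**Figure D2:**
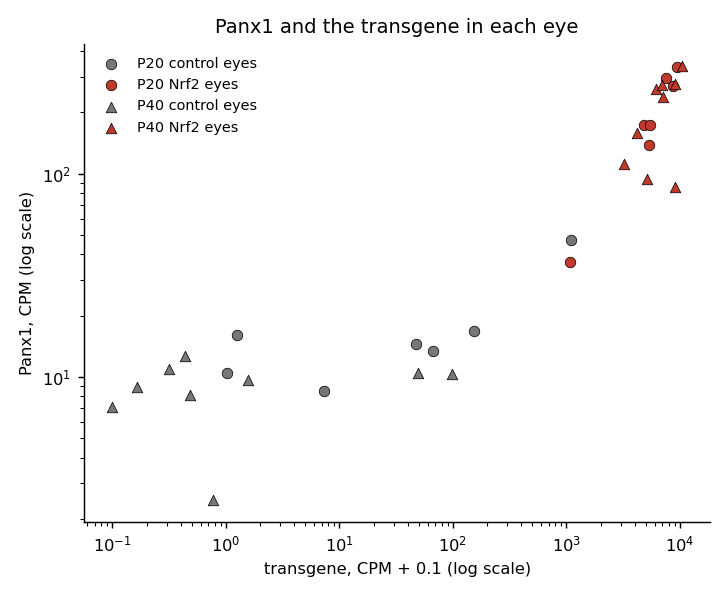
*Panx1* CPM against transgene CPM plus 0.1 (both log scales) in the 32 eyes, circles for P20, triangles for P40, grey for control and red for Nrf2 eyes. The grey and the red circle at 1098 and 1082 CPM of transgene are P20 control mouse 3 and P20 Nrf2 mouse 4, which lie between the other control and Nrf2 eyes.

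Among 11789 genes with a mean log2 CPM of at least 2, those whose log2 CPM ran most like that of *Panx1* over the 32 libraries were *Srxn1* (Pearson's r 0.990), *Gclm* (0.984), *Gclc* (0.980), *Slc11a1* (0.978) and *Osgin1* (0.975). *Srxn1*, *Gclm* and *Gclc* encode enzymes of thiol and glutathione metabolism. The 32 points share the Nrf2 and control contrast and the pairing of eyes, so the values are a description. As deviations from the 4 group means, r with *Panx1* was 0.933 for *Srxn1*, 0.845 for *Slc11a1* and 0.403 for the transgene. These values include the control eye of P20 mouse 3 and the Nrf2 eye of P20 mouse 4. These eyes lay far from their groups in *Panx1* (47.2 and 36.5 CPM), and r was not computed without them.

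*Panx2* (ENSMUSG00000058441; chromosome 15, 89059734 to 89073567), a pannexin known mainly from the nervous system, was scarce. At P40 it stood at 0.128 to 2.09 CPM in control eyes (median 1.01) and 1.42 to 9.53 CPM in Nrf2 eyes (median 3.82). In 8 of 9 mice the Nrf2 eye had more, the groups overlapped, and the lowest control eye, that of mouse 5, held 3 counts. *Panx2* rose 4.92-fold (log2 fold change 2.30, SE 0.59; edgeR adjusted P = 0.04998, just under the threshold of 0.05). It was 1 of 2 genes of the 9 tested that passed at P40, where 4.57% of all genes tested did.

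That call rests on single mice. *Panx2* passed without P40 mouse 3 or without mouse 8 and did not pass when any of the other 7 P40 mice was left out (log2 fold change 2.02 to 2.61 over the 9 fits). At P20 the control eyes of mice 1 to 7 stood at 5.36, 1.17, 1.04, 4.84, 0.674, 0.873 and 1.16 CPM, and the Nrf2 eyes at 4.67, 5.04, 4.07, 1.39, 4.33, 4.84 and 7.68 CPM. The control eyes of mice 1 and 4 were as high as most Nrf2 eyes, and these were also the control eyes with the most rod marker RNA (435 and 359 CPM summed over 8 genes, against 22.4 to 151 in the other 5). These eyes also held the most cone marker RNA of the P20 control eyes (644 and 792 CPM summed over 6 genes, against 29.1 to 331). Their *Adora1* was the highest of that group too (57.0 and 43.6 CPM). At P40 the control eyes of mice 2, 1 and 9 held the most rod marker RNA (563, 447 and 424 CPM). Their cone sums were 1742, 1435 and 1830 CPM, and their *Panx2* stood at 0.453, 1.01 and 2.09 CPM. The control eye of P40 mouse 3 had a cone sum of 1711 CPM and 1.03 CPM of *Panx2*. The part of rod or cone RNA in the result was not tested. *Panx2* was higher in 5 of 7 P20 Nrf2 eyes, and its fitted log2 fold change, 1.501 (SE 0.62), did not pass (edgeR adjusted P = 0.250).

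At P20 none of the 9 tested genes passed in edgeR, where 3.41% of all genes did. Only *Panx2* had an unadjusted P under 0.05, and it passed in DESeq2 (adjusted P = 0.0443), while limma voom called 0 of the 9. Without mouse 4 alone, 3 of the 9 passed in edgeR, where 12.2% of all genes then did, *Panx2* higher (log2 fold change 1.93) and *P2ry2* (−1.10) and *Entpd1* (−0.84) lower. Without both mice 3 and 4 none passed, with edgeR adjusted P of 0.0932 for *Panx2* (1.94), 0.0653 for *P2ry2* (−1.23), 0.0756 for *Entpd1* (−0.81) and 0.142 for *Nt5e* (−0.88). *Entpd2* (−0.74), *P2rx7* (−0.49), *P2rx4* (0.31), *Adora1* (0.39) and *Adora2b* (0.16) were farther from the threshold in that fit. The median log2 fold change of the 9 genes was −0.44 at P20 and −0.14 at P40, beside −0.04 and −0.03 over all genes tested. With each mouse left out it ran from −0.66 (without mouse 4) to −0.03 (without mouse 2) at P20 and from −0.29 (without mouse 9) to 0.09 (without mouse 4) at P40.

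**Figure D3:**
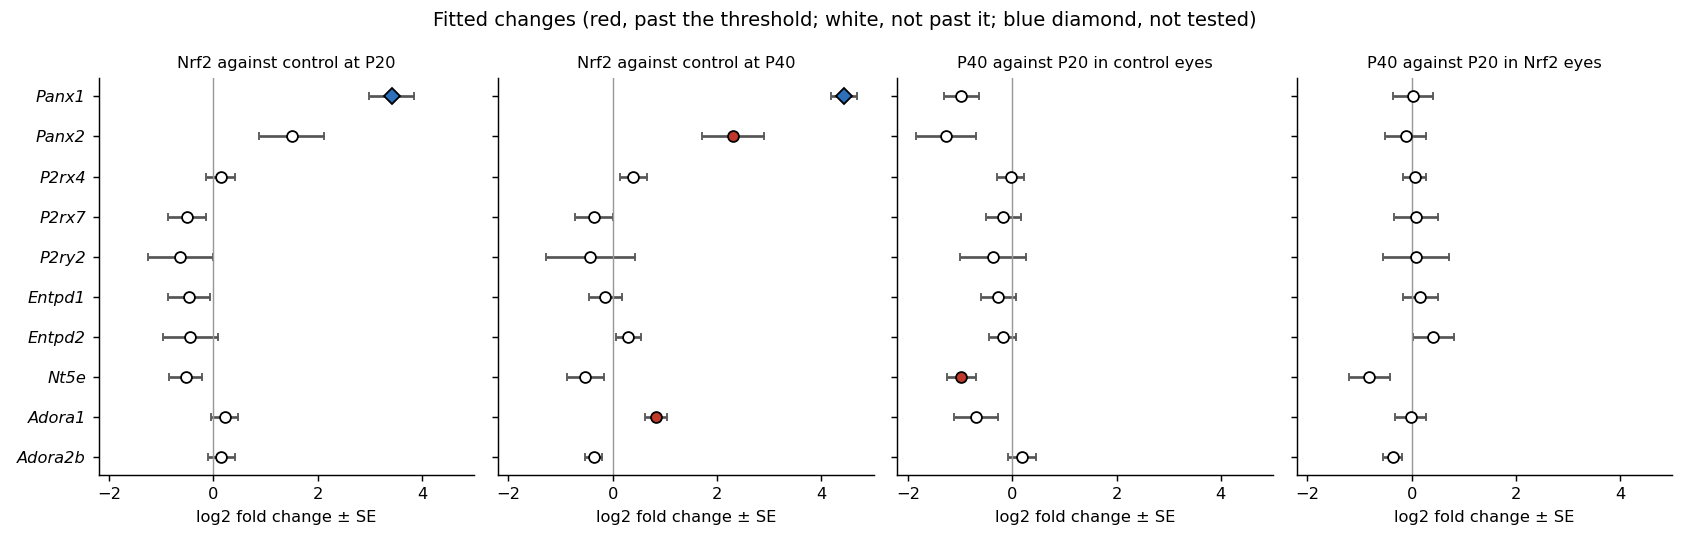
Fitted log2 fold changes with standard errors of the 10 genes in 4 comparisons, red where the edgeR adjusted P was under 0.05, white where it was not, and a blue diamond for *Panx1*, which was not tested with Nrf2. At P40 *Panx2* (2.30) and *Adora1* (0.84) are red, and with age in control eyes *Nt5e* (−0.98) is.

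The 3 nucleotide receptors did not pass with Nrf2 at either age. *P2rx4* (ENSMUSG00000029470; chromosome 5, 122707544 to 122729738), an ATP-gated cation channel, had group medians of 8.93 to 15.2 CPM. It stood at 9.20 to 15.2 CPM in P20 control eyes, 6.98 to 19.99 in P20 Nrf2 eyes, 5.39 to 19.3 in P40 control eyes and 10.6 to 16.9 in P40 Nrf2 eyes. Its log2 fold change with Nrf2 was 0.14 (SE 0.28, edgeR adjusted P = 0.829) at P20 and 0.39 (SE 0.25, edgeR adjusted P = 0.624) at P40.

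*P2rx7* (ENSMUSG00000029468; chromosome 5, 122643911 to 122691432), the P2X channel that needs high ATP and is linked with inflammation and cell death, was low. Its median was 3.70 CPM in P20 control eyes, 2.95 in P20 Nrf2 eyes, 3.27 in P40 control eyes and 3.79 in P40 Nrf2 eyes. The groups overlapped at both ages, with log2 fold changes of −0.50 (SE 0.36) and −0.36 (SE 0.36).

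*P2ry2* (ENSMUSG00000032860; chromosome 7, 100996568 to 101012866), a receptor for ATP and UTP known from RPE fluid transport, varied most from mouse to mouse of the 10 genes. At P40 control eyes of mice 1 to 9 stood at 19.05, 31.3, 3.02, 69.6, 9.23, 48.7, 28.5, 84.2 and 5.58 CPM. The Nrf2 eyes stood at 48.5, 27.2, 2.63, 6.21, 46.6, 0.998, 9.46, 50.5 and 56.0 CPM. Both groups ran from near 1 or 3 CPM to over 50 CPM, and only mouse 3 was low in both eyes. Nrf2 minus control within a mouse ran from −5.53 to 3.32 on the log2 scale, and its SD (2.77) was above that of 97.4% of the 16686 genes tested. The fitted log2 fold change was −0.43 (SE 0.85) at P40 and −0.63 (SE 0.62) at P20, neither past the threshold.

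The ectoenzymes differed in abundance and likewise did not pass with Nrf2. *Entpd1* (ENSMUSG00000048120; chromosome 19, 40612366 to 40741602), the CD39 enzyme that takes ATP and ADP to AMP, stood at 7.39 to 50.6 CPM in P20 control eyes and 11.1 to 33.9 in P20 Nrf2 eyes, lower in the Nrf2 eye of 6 of 7 mice. The exception was mouse 4, whose control eye was the lowest and whose Nrf2 eye was the highest of its group. At P40 the ranges were 11.7 to 40.1 CPM in control and 9.15 to 44.4 CPM in Nrf2 eyes. The log2 fold changes were −0.46 (SE 0.40, edgeR adjusted P = 0.575) and −0.14 (SE 0.32, edgeR adjusted P = 0.944).

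*Entpd2* (ENSMUSG00000015085; chromosome 2, 25395874 to 25401321), which takes ATP mainly to ADP, stood at 3.70 to 12.01 CPM in the control eyes of both ages. At P40 the Nrf2 eye had more in 8 of 9 mice, while 8.21% of all genes were higher in at least 8. The log2 fold change was 0.30 (SE 0.24, edgeR adjusted P = 0.735). At P20 the Nrf2 eye of mouse 2 held 0.493 CPM, from 9 counts, while the other 6 held 5.27 to 10.5.

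*Nt5e* (ENSMUSG00000032420; chromosome 9, 88327197 to 88372092) encodes CD73, which takes AMP to adenosine. It fell with age in control eyes, from 73.0 to 243 CPM at P20 (median 177, n = 7) to 35.7 to 126 CPM at P40 (median 77.1, n = 9). The groups overlapped, and 6 of the 7 P20 eyes lay above every P40 eye. The log2 fold change was −0.98 (SE 0.27, 1.97-fold lower, edgeR adjusted P = 0.0339). *Nt5e* was the only 1 of the 10 genes to pass with age in control eyes, where 14.8% of all genes did.

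The call of *Nt5e* was lost without any 1 of P20 control mice 1, 2, 3, 5, 6 and 7 or P40 control mice 2 and 5 (log2 fold change −1.10 to −0.85 over the 16 fits) and kept in the other 8. It was also lost without P20 mice 3 and 4 (−1.17, edgeR adjusted P = 0.0548). In Nrf2 eyes *Nt5e* stood at 63.9 to 172 CPM at P20 and 11.5 to 159 CPM at P40, which gave −0.81 on the log2 scale (SE 0.40, edgeR adjusted P = 0.207). Between Nrf2 and control eyes its log2 fold change was −0.53 at both ages (SE 0.32 and 0.35) and did not pass.

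Several of these genes were lowest in the same eyes. Of the 9 P40 Nrf2 eyes, those of mice 3, 4 and 6 were the 3 lowest for *P2rx7* (1.38, 1.54 and 1.13 CPM), *P2ry2* (2.63, 6.21 and 0.998 CPM), *Entpd1* (9.48, 9.15 and 14.2 CPM) and *Nt5e* (17.8, 43.8 and 11.5 CPM). The eyes of mice 3 and 6 also held the most RPE marker RNA of that group (70956 and 55534 CPM, against 13275 to 24091 in the other 7) and the most blood marker RNA (5831 and 3907 CPM, against 352 to 1803), and the part of either in these levels was not tested. Of the P20 control eyes, that of mouse 6 was the highest for the same 4 genes and for *Entpd2*.

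*Adora1* (ENSMUSG00000042429; chromosome 1, 134199223 to 134235431), the high-affinity adenosine receptor coupled to inhibition of cAMP formation, rose with Nrf2 at P40. Control eyes of mice 1 to 9 stood at 22.1, 20.05, 6.48, 31.5, 5.10, 20.6, 27.3, 4.55 and 24.4 CPM. The Nrf2 eyes stood at 43.7, 51.2, 20.8, 30.1, 12.95, 21.996, 30.7, 11.4 and 49.1 CPM. The groups overlapped, but the Nrf2 eye was higher in 8 of 9 mice, and in mouse 4 the 2 eyes were nearly alike. The log2 fold change was 0.84 (SE 0.21, 1.78-fold, edgeR adjusted P = 0.0452).

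*Adora1* passed without P40 mouse 4 or without mouse 6 and not when any of the other 7 was left out (0.77 to 0.95 over the 9 fits). It did not pass in a fit that ignored the pairing of eyes (0.71, edgeR adjusted P = 0.549). The call was also lost with limma voom (0.68, limma adjusted P = 0.0555) and with no filter (0.85, edgeR adjusted P = 0.0649). At P20 control eyes held 11.1 to 57.0 CPM and Nrf2 eyes 24.5 to 48.9 CPM, and the change was small (0.22 on the log2 scale, SE 0.26, edgeR adjusted P = 0.696). The difference between the ages was 0.63 (SE 0.35, edgeR adjusted P = 1.00).

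*Adora2b* (ENSMUSG00000018500; chromosome 11, 62248984 to 62266453), the low-affinity adenosine receptor that raises cAMP, did not pass at either age. At P40 it stood at 56.0 to 246 CPM in control eyes and 67.8 to 160 CPM in Nrf2 eyes, lower in the Nrf2 eye of 7 of 9 mice (log2 fold change −0.37, SE 0.16, edgeR adjusted P = 0.367). The control and the Nrf2 eye of mouse 8 were each the lowest of their group. The P20 value was 0.16 on the same scale (SE 0.25, edgeR adjusted P = 0.786).

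With age, *Panx1* stood at a median of 14.5 CPM in P20 and 9.63 CPM in P40 control eyes, with overlapping groups. Its log2 fold change was −0.97 (SE 0.33, edgeR adjusted P = 0.0560), and without the control eye of P20 mouse 3, the highest, it was −0.55. In Nrf2 eyes it was 0.02 (SE 0.38). None of the 10 genes passed with age in Nrf2 eyes in edgeR (0.502% of all genes did), none had an unadjusted P under 0.05, and neither DESeq2 nor limma voom called one. No member separated the ages without overlap in control or in Nrf2 eyes, where 1.84% and 0.812% of all genes did. The 4 comparisons share eyes, since each group enters both a Nrf2 and an age comparison. The library names form a separate series at each age, so no age result can be told apart from a difference between the series.

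Whether the Nrf2 effect differed with age was tested as an interaction for the 9 genes other than *Panx1*, and none passed in edgeR, where 0.00557% of all genes passed. None of the 9 had an unadjusted P under 0.05, and DESeq2 and limma voom called none of them either. The difference for *Panx2* was 0.80 (SE 0.89). That of *Panx1*, given as a description, was 1.01 (SE 0.47), and 0.45 without P20 mice 3 and 4.

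Levels between genes were compared as mean CPM per kilobase of annotated exon. In P20 control eyes the order was *Adora2b* (71.1 ± 23.1, SD, n = 7), *Nt5e* (19.1 ± 6.33), *P2ry2* (11.2 ± 8.43), *Entpd1* (5.66 ± 2.75), *Adora1* (5.10 ± 2.92), *Entpd2* (3.64 ± 1.39), *Panx1* (3.00 ± 2.18), *P2rx4* (1.63 ± 0.31), *P2rx7* (0.76 ± 0.42) and *Panx2* (0.60 ± 0.56). Neighbours in this order differed by more than the larger of their SDs only between *Adora2b* and *Nt5e* and between *P2rx4* and *P2rx7*.

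In P40 control eyes *Adora2b* again led (79.3 ± 29.8, n = 9), *Panx1* came eighth at 1.49 ± 0.48 and *Panx2* last at 0.25 ± 0.18. In Nrf2 eyes *Panx1* came second at both ages, at 33.7 ± 17.2 at P20 (n = 7) and 33.8 ± 15.4 at P40 (n = 9). There it lay below *Adora2b* (78.9 ± 22.3 and 60.4 ± 13.9) and above *Nt5e* (13.6 ± 4.65 and 7.67 ± 5.09) by more than the larger SD.

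The 53 other genes of the pathway covered release channels, P2X and P2Y receptors, nucleotide hydrolases inside and outside the cell, adenosine receptors and adenosine handling. Of these, 39 were tested with Nrf2 at P20, and 2 rose and 0 fell. At P40, 40 were tested, and 4 rose and 0 fell. Of all genes tested, 2.93% rose and 0.485% fell at P20, and 3.33% rose and 1.23% fell at P40. No release channel outside the pannexins passed (0 of 7 and 0 of 6 tested in edgeR, none with an unadjusted P under 0.05 and none called by DESeq2 or limma voom), and neither did *Adora3*, the 1 other adenosine receptor tested. The median log2 fold change of the other genes was 0.06 at P20 and −0.09 at P40.

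*Ampd3*, the AMP deaminase that takes intracellular AMP to IMP, rose at both ages. It stood at 1.27 to 8.87 CPM in P20 control eyes and 14.1 to 78.5 in P20 Nrf2 eyes, and at 0.935 to 6.18 and 14.1 to 61.2 CPM at P40. The groups did not overlap at either age, with log2 fold changes of 3.37 (SE 0.49, edgeR adjusted P = 0.0128) and 4.00 (SE 0.46, edgeR adjusted P = 0.000307). The share of all genes without such overlap was not computed, here or for the genes that follow. Of all genes tested, 5.59% at P20 and 3.55% at P40 were higher in every pair. *Entpd5*, a nucleoside diphosphatase of the endoplasmic reticulum, rose by 1.19 (SE 0.16, edgeR adjusted P = 0.0105) and 1.53 (SE 0.26, edgeR adjusted P = 0.00458). It was higher in all 7 and all 9 pairs, with ranges of 25.9 to 38.8 CPM in P20 control eyes and 39.0 to 100.2 in P20 Nrf2 eyes that did not overlap. At P40 its ranges, 9.42 to 29.9 CPM in control and 20.7 to 86.01 CPM in Nrf2 eyes, overlapped.

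*Slc29a4*, a plasma membrane transporter of monoamines and adenosine, rose at P40 from 0.556 to 2.01 CPM in control eyes to 3.89 to 23.8 CPM in Nrf2 eyes. The groups did not overlap (log2 fold change 3.25, SE 0.27, edgeR adjusted P = 3.28e-05). Its P20 change was 2.61 on the log2 scale (SE 0.63, edgeR adjusted P = 0.0629), with mouse 4 the exception at 9.60 CPM in the control and 3.87 in the Nrf2 eye. Without P20 mice 3 and 4 it passed.

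*P2ry12*, an ADP receptor and a marker of microglia, rose at P40 from 0.651 to 3.58 CPM in control eyes to 4.42 to 31.3 CPM in Nrf2 eyes, higher in all 9 pairs (log2 fold change 2.43, SE 0.39, edgeR adjusted P = 0.00322). Of the 10 macrophage and microglia markers, 6 rose in the same comparison, where 3.33% of all genes tested did, and 0 fell. The fold changes of the 10 markers were positive for 7 and negative for 3. Their sum ran from 119 to 481 CPM in control eyes (median 189) and from 112 to 453 CPM in Nrf2 eyes (median 342), with none of the 10 at a median count of 0, and their part in the result was not tested. The P20 value of *P2ry12* was 0.33 (SE 0.76, edgeR adjusted P = 0.855), and 0 of the 10 markers passed.

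**Figure D4:**
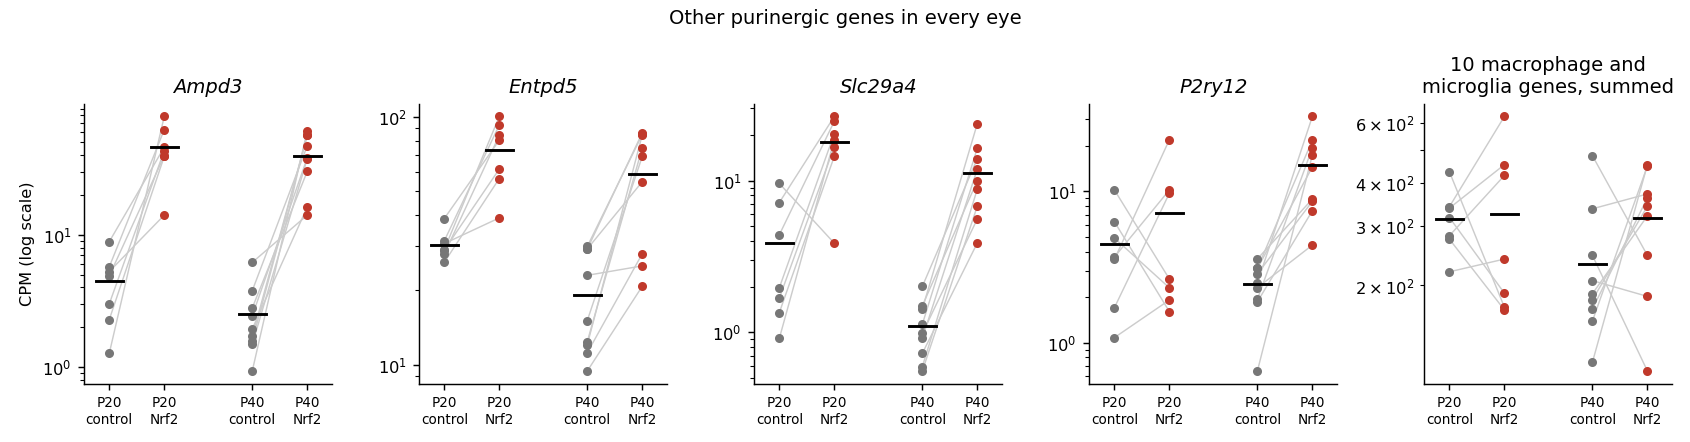
CPM (log scale) in each eye of the 4 other pathway genes past the threshold with Nrf2, and of the sum of 10 macrophage and microglia markers, with colours, lines and bars for control eyes, Nrf2 eyes, mice and means as in the plot of the 10 genes. *Ampd3* separates Nrf2 from control eyes at both ages, and *P2ry12* does at P40 (4.42 to 31.3 against 0.651 to 3.58 CPM).

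Other markers moved in the same comparisons as the 10 genes. At P40, 5 of 12 RPE markers (*Rgr*, *Rdh5*, *Lrat*, *Rpe65* and *Rlbp1*), 2 of 7 rod markers and 6 of 6 cone markers fell in Nrf2 eyes, and the rod sum was 67.6 to 563 CPM in control and 7.38 to 76.2 CPM in Nrf2 eyes. At P20, *Rpe65*, *Gnat2*, *Opn1sw* and the pericyte gene *Rgs5* fell. All 8 Nrf2 targets listed as a check of the labels rose at both ages. The part of the photoreceptor and RPE markers in the differences of *Panx2* and *Adora1* was not tested.

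With age in control eyes, 1 of 40 other pathway genes tested rose and 3 fell, against 8.34% of all genes higher and 6.42% lower. *Pnp*, which splits purine nucleosides, rose by 0.58 (SE 0.19, edgeR adjusted P = 0.0455). *Slc29a4* (−1.79), the ectonucleotidase *Entpd3* (−1.53) and the connexin *Gja1* (−1.05) fell, with edgeR adjusted P of 0.0285, 0.0435 and 0.0423. All 4 calls were lost without P20 mice 3 and 4, and also without P20 control mouse 1, 3 or 4 or P40 control mouse 5 alone. Without P20 control mouse 2, 5 or 7 or P40 control mouse 2, 3 or 7, *Slc29a4* was the 1 gene left. Fibroblast and mural markers fell in the same comparison (3 of 7, *Col1a1*, *Col1a2* and *Pdgfra*), and their part was not tested. In Nrf2 eyes 0 of 41 passed with age in edgeR, 4 had an unadjusted P under 0.05, DESeq2 called 0 and limma voom 1.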

How the data were processed

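The deposited table holds estimated counts per gene that the authors made from the reads of 32 libraries. Its values are whole numbers. The study's methods name STAR alignment to mm10 with featureCounts, and Salmon (version 0.9.1 in the submitters' processing notes) with tximport, but not which of these gave the table. RNA was amplified before library preparation. The labels speak of 2 sequencing runs but not of which library was in which, so run was not modelled. Names of all P20 libraries start with M and those of all P40 libraries with A, and the meaning of the letters is not given. Age and this series of names cannot be told apart. The members and lists were chosen with earlier results of these data known.

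Counts were filtered with filterByExpr, scaled by TMM and tested with the edgeR quasi-likelihood test (edgeR 4.0.16, R 4.3.3), with the mouse as a block for Nrf2 against control and without it for age, adjusted by Benjamini-Hochberg over all genes at 0.05. Standard errors (SE) in edgeR were computed as the absolute log2 fold change over the square root of the F statistic of the test. Those of *Panx1* with Nrf2 therefore carry that statistic and are a description, not a test. The fits were tested on simulated data. Eyes were paired by the animal in the labels; deviations of the 2 eyes correlated by 0.0213 on average at P20 and 0.0990 at P40. The alternatives were DESeq2 1.42.0, limma 3.58.1 (voom with quality weights), RLE scaling, other filters (none, or at least 10 counts in every library), robust dispersion, the block changed, one fit over all libraries and each mouse left out. Correlations used log2 CPM with a prior count of 2. Named genes were the members, pathway genes past the threshold and the 5 most like *Panx1*. Exon lengths came from GENCODE M21 and promoters from RefSeq (GRCm38.p6). P-values treat mice as replicates, and floors cover counting error only.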

Additional observations from a re-analysis of the deposited data

Results flagged for a closer look

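Of 40 groups of eyes examined (10 genes in 4 groups), 9 had 1 eye far from the rest by Dixon's criterion, where chance gives about 1 in 20. *Panx1* was high in the control eye of P20 mouse 3 (47.2 CPM, next 16.7), low in the Nrf2 eye of P20 mouse 4 (36.5, next 138) and low in the control eye of P40 mouse 3 (2.46, next 7.14). *Panx2* was low in the Nrf2 eye of P20 mouse 4 (1.39 CPM, next 4.07). *P2ry2* was low in the control eye of P20 mouse 4 (3.07 CPM, next 24.1). *Entpd2* was low in the Nrf2 eye of P20 mouse 2 (0.493 CPM, next 5.27), the shallowest library. *Adora1* was high in the Nrf2 eye of P20 mouse 1 (48.9 CPM, next 32.8). *Adora2b* was low in the control eyes of P20 mouse 5 (55.3 CPM, next 111) and P40 mouse 8 (56.0, next 122). The 9 values come from 8 eyes, and 3 of the 9 belong to P20 control mouse 3 and P20 Nrf2 mouse 4, the 2 libraries that lie closest to each other.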

How the results depend on the processing

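The log2 fold change of *Panx1* with Nrf2 stayed positive throughout, at 3.15 to 3.71 (P20) and 4.34 to 4.56 (P40) with each mouse left out. With Nrf2 at P20, 0 of 9 genes passed, 1 with DESeq2 and 0 to 3 with each mouse left out. Of the other pathway genes 2 passed, 7 with DESeq2, 5 with limma voom, 4 without P20 mice 3 and 4 and 2 to 7 with each mouse left out. At P40, 2 of 9 passed. Only *Panx2* passed with limma voom, no filter or no replicate block. Only *Adora1* passed with RLE scaling, robust dispersion or at least 10 counts in every library, where *Panx2* was not tested. Between 0 and 1 passed with each mouse left out (other pathway genes 4 to 6). With age in control eyes, 1 of 10 passed, 2 with DESeq2 or at least 10 counts (*Panx1* and *Nt5e*), and 0 with no filter, the replicate block (the mouse number, which the ages share although the mice differ, so a call lost there is no weaker effect), one fit over all 32 libraries or without P20 mice 3 and 4, and 0 to 1 with each eye left out. Of the other pathway genes 4 passed, 1 with no filter, 0 with the replicate block or without P20 mice 3 and 4 and 0 to 6 with each eye left out. With age in Nrf2 eyes limma voom called 1 other gene, *Cant1*. The causes were not tested.

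Some uncalled values changed sign. With limma voom these were *P2rx4* (−0.093) at P20, *Entpd1* (0.018) at P40, *P2rx4* (0.27), *P2rx7* (0.046) and *Entpd2* (0.020) with age in control eyes, and *P2ry2* (−0.44) with age in Nrf2 eyes. With the replicate block they were *P2rx4* (0.078) with age in control eyes and *P2rx7* (−0.28), *P2ry2* (−1.10) and *Entpd1* (−0.18) with age in Nrf2 eyes. Without P20 mice 3 and 4 they were *P2rx4* (0.029) in control eyes and *Panx1* (−0.086), *P2rx4* (−0.063) and *P2rx7* (−0.052) in Nrf2 eyes. The interaction of *Nt5e* was −0.020 with DESeq2 and −0.019 with RLE scaling or at least 10 counts. With 1 mouse or eye left out, the ranges that crossed 0 were, with Nrf2, *P2rx4* (−0.0043 to 0.37) and *Adora2b* (−0.025 to 0.30) at P20 and *P2ry2* (−0.88 to 0.055) and *Entpd1* (−0.32 to 0.088) at P40. With age they were *P2rx4* (−0.17 to 0.057), *P2rx7* (−0.36 to 0.092) and *P2ry2* (−0.68 to 0.046) in control eyes, and *Panx1* (−0.19 to 0.19), *Panx2* (−0.40 to 0.061), *P2rx4* (−0.055 to 0.17), *P2rx7* (−0.087 to 0.25), *P2ry2* (−0.11 to 0.31) and *Adora1* (−0.17 to 0.13) in Nrf2 eyes. For the interaction they were *P2rx7* (−0.076 to 0.34), *P2ry2* (−0.26 to 0.67) and *Nt5e* (−0.20 to 0.26).

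Over all genes, edgeR called 556 with Nrf2 at P20 (DESeq2 1951, limma voom 2605, no filter 348, no block 1093), 762 at P40 (DESeq2 1380, limma voom 1327), 2483 with age in control eyes (DESeq2 4383, limma voom 3747, no filter 914, replicate block 59, without P20 mice 3 and 4 158) and 84 in Nrf2 eyes (DESeq2 1832, limma voom 2213, no filter 31, replicate block 3). With age in control eyes 1403 of the calls were higher, against 1625 with limma voom and 295 with no filter. With 1 mouse or eye left out, the calls over all genes ran from 111 (without mouse 7) to 1999 (without mouse 4) with Nrf2 at P20, from 521 to 997 at P40, from 473 (without P20 control mouse 5) to 4273 (without P40 control mouse 1) with age in control eyes and from 21 (without P20 Nrf2 mouse 6) to 190 (without P40 Nrf2 mouse 2) in Nrf2 eyes.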
